A study of Mus musculus with 4 samples.

Results

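Globin and erythroid transcripts were examined in bulk RNA sequencing of mouse lung with 4T1 metastases, in 7 of the 56748 genes of the count table. These were the adult alpha globins Hba-a1 and Hba-a2, the adult beta globins Hbb-bs and Hbb-bt, the heme synthesis enzyme Alas2, the anion exchanger Slc4a1 and the enzyme Bpgm. The 7 genes were selected on their counts in the saline and ADC/cmLumiOpto samples, with earlier results of these data known. Their differences between the groups are therefore given as a description, without a test, and all 7 were among the 15320 genes that passed the filter on low counts.

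Female BALB/cJ mice were used, aged 7 weeks when 2000000 4T1-FLuc cells, a mouse triple-negative breast cancer line that expresses firefly luciferase, were injected into the tail vein. The 2 saline samples came from mice given vehicle, which the labels call a PBS control. The 2 ADC/cmLumiOpto samples came from mice given an anti-CD276 antibody carrying mertansine (DM1, a microtubule inhibitor) together with a gene therapy vector for a light-gated mitochondrial channel and the luminescent substrate ViviRen. The ADC dose is 16 mg/kg by the labels, which also carry the unexplained abbreviation Olap, and 8 mg/kg by the methods. The labels describe harvested tumor cells and the methods dissociated lung tissue, and the methods count 4 samples per group. Keratin and lung genes were both abundant in all samples, with Krt8 between 1116 and 1541 CPM (counts scaled to the TMM-normalized library size) and the surfactant gene Sftpc between 174 and 4315 CPM. Total counts were between 15263375 and 19675436 per sample, so that 3 counts, taken as the floor, were worth between 0.152 and 0.197 CPM. Intervals and floors given here cover counting error only. Nothing in the labels ties the numbers of the samples across the groups, and 2 against 2 samples allow no two-sided p under 0.333 in an exact permutation test.

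Hemoglobin, the oxygen carrier of red cells, is built from alpha and beta globin chains that each hold a heme. Erythroid precursors in the marrow and spleen make globin messenger RNA in very large amounts, and reticulocytes, the youngest red cells in blood, still carry it after the nucleus has been lost. Globin RNA is thus a usual component of RNA from blood-rich organs such as the lung. In bulk RNA, fewer cells of a type and less RNA per cell cannot be told apart.

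The adult globin genes come in near-identical pairs. In the GENCODE transcripts of GRCm38 the coding sequences of Hba-a1 and Hba-a2 had the same length of 429 bases and differed at 1 base, C381T, an identity of 99.8%. Those of Hbb-bs and Hbb-bt had 444 bases and also differed at 1 base, C417T. Positions count from 1 at the A of the start codon, with the base of the first gene of the pair before the position and that of the second after it. The stretches of 41 coding bases around the difference, all in exon 3 of 3, are shown with the differing base in capitals. Within the coding sequence, they are where a read can tell these annotated copies apart. They lie on GRCm38 at chr11:32284323-32284363 and chr11:32297140-32297180 on the plus strand and at chr7:103826672-103826712 and chr7:103812663-103812703 on the minus strand.
Hba-a1: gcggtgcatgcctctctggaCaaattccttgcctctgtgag
Hba-a2: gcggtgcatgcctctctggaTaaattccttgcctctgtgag
Hbb-bs: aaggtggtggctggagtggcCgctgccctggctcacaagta
Hbb-bt: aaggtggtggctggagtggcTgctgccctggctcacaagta

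Of the stretches of 100 bases in the Hba-a1 transcript, 339 of 600 (56.5%) also occurred in Hba-a2, and these were 339 of 455 (74.5%) of those in Hba-a2. For the beta pair, 331 of 529 (62.6%) of the stretches of Hbb-bs occurred in Hbb-bt, which was 331 of 604 (54.8%) of those of Hbb-bt. How reads that match both copies were counted is not given in the sources used here, so the split within a pair is uncertain and the sum of a pair is the firmer value. BALB/c mice are also known to carry another beta globin haplotype than the C57BL/6J reference genome, in which Hbb-bs and Hbb-bt are annotated.

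RefSeq promoters were found for 6 of the 7 genes, all but Slc4a1. The 250 bases before the start site are shown for 1 alpha globin, both beta globins and Alas2, because all 4 globin genes, and neither Alas2 nor Bpgm, held each of 4 motifs. These were GATAAG, known to be read by GATA factors, then CACCC, read by erythroid Krüppel-like factor, further CCAAT, read by NF-Y, and ATATAA, a form of the TATA box. They were searched on both strands, did not overlap each other in these promoters, and are in capitals, also where the match is on the opposite strand and its complement is printed. On GRCm38.p6 the sequences lie at chr11:32283422-32283671 on the plus strand, chr7:103827929-103828178 and chr7:103813924-103814173 on the minus strand, and chrX:150547167-150547416 on the plus strand.
Hba-a1: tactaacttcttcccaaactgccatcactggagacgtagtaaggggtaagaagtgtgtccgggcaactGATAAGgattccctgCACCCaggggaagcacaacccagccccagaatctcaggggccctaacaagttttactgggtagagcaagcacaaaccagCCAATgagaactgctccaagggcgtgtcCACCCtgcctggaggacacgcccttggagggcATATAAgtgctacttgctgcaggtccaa
Hbb-bs: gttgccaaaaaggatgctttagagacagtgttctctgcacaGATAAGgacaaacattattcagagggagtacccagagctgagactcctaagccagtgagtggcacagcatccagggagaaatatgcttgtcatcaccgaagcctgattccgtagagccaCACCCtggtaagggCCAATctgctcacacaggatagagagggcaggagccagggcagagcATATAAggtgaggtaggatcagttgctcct
Hbb-bt: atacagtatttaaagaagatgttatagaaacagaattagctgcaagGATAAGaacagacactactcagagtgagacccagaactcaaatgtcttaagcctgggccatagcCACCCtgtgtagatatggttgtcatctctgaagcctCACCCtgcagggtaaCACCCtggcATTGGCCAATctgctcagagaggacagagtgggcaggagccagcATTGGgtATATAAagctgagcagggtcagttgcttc
Alas2: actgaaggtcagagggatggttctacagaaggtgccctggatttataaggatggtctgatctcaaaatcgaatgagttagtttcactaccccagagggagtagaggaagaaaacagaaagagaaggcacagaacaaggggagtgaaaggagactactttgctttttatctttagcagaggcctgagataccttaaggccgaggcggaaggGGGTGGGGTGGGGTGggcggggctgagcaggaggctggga

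In the globin promoters GATAAG began between 182 and 209 bases and ATATAA between 28 and 31 bases before the start site. The promoters of Hba-a1 and Hba-a2 shared an unbroken run of 247 bases, whereas the longest run shared by Hbb-bs and Hbb-bt had 14 bases. Alas2 held CACCC alone of the 4 motifs, 3 times on the opposite strand, and Bpgm held CCAAT alone, 3 times. Only these exact letters were searched, so a missing match does not mean that a promoter lacks a site for the factor. Other forms were not counted, such as AGATAA, whose complement ttatct is in the Alas2 sequence shown. Of 32851 RefSeq promoters of this length, 6.55% held GATAAG, 52% CACCC, 33.8% CCAAT and 9.1% ATATAA, and 46 (0.14%) held all of them. A match is a description of the letters and does not show that a factor was bound.

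The 4 globin genes held most counts of the 7 genes, 17293 of 18118 in saline 1 and 41862 of 43044 in ADC/cmLumiOpto 2. They took 0.107% of all counts in saline 1 (95% Wilson interval 0.106% to 0.109%) and 0.0332% in saline 2 (0.0323% to 0.0341%). In the treated samples they took 0.182% (0.18% to 0.184%) and 0.213% (0.211% to 0.215%). Their summed level was 1079.7 CPM in saline 1, 341 CPM in saline 2, 1842 CPM in ADC/cmLumiOpto 1 and 2039 CPM in ADC/cmLumiOpto 2, that is 710.3 ± 522 against 1941 ± 139 CPM (mean ± SD, n = 2), a ratio of 2.73. Both treated samples thus lay above both saline samples, but saline 1 and saline 2 differed by 3.17 times, more than the treated samples differed from saline 1 (1.71 and 1.89 times).

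The alpha globin Hba-a1 (ENSMUSG00000069919) is listed at chr11:32233511-32234465 on the plus strand. The submitters' processing notes name mm39, to which these positions in the table are credited here, and the methods name GRCm38, whose annotation places the gene elsewhere on the chromosome. The counts of Hba-a1 were 6674 in saline 1, 2056 in saline 2, 8909 in ADC/cmLumiOpto 1 and 12606 in ADC/cmLumiOpto 2. After normalization this was 417 and 138 CPM against 504 and 614 CPM, with a log2 fold change of 1.01 (SE 0.466). The groups did not overlap, yet ADC/cmLumiOpto 1 was close to saline 1, at 1.21 times its level, and per length (TPM) they were at 1569 and 1569.

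Hba-a2 (ENSMUSG00000069917, chr11:32246489-32247298, plus strand) encodes the same alpha chain from the second adult locus. It had 847 and 215 counts in the saline and 2440 and 2248 counts in the treated samples, or 52.9, 14.5, 138 and 109 CPM. The treated samples were at 2.61 and 2.07 times the level of saline 1, and the log2 fold change was 1.88 (SE 0.541). The alpha pair summed to 469.6 and 153 CPM in saline and to 642 and 723 CPM in ADC/cmLumiOpto, a ratio of means of 2.19.

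The beta globin Hbb-bs (ENSMUSG00000052305, chr7:103475741-103477303, minus strand) had the highest level of the 7 genes in every sample. Its counts were 8664 and 2496 in saline and 18047 and 23742 in ADC/cmLumiOpto. This gave 354 ± 264 CPM against 1089 ± 95.3 CPM (mean ± SD, n = 2) and a log2 fold change of 1.62 (SE 0.494). Hbb-bt (ENSMUSG00000073940, chr7:103461731-103463203, minus strand), the other adult beta globin, had 1108 and 298 counts in saline and 3152 and 3266 in ADC/cmLumiOpto. Its 44.6 ± 34.7 and 169 ± 13.7 CPM gave the largest ratio of group means among the 7 genes, 3.78, and a log2 fold change of 1.92 (SE 0.517). For both beta globins the treated samples lay close together and above both saline samples. The beta pair summed to 610.1 and 188 CPM in saline and 1199.9 and 1315 CPM in ADC/cmLumiOpto, a ratio of 3.15.

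Alas2 (ENSMUSG00000025270, chrX:149330371-149353634, plus strand) encodes the erythroid form of the enzyme that starts heme synthesis. It had 461 and 154 counts in saline and 467 and 685 in ADC/cmLumiOpto, or 28.8, 10.4, 26.4 and 33.4 CPM. The groups overlapped, since saline 1 was above ADC/cmLumiOpto 1, and the log2 fold change was 0.61 (SE 0.445).

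Slc4a1 (ENSMUSG00000006574, chr11:102239650-102257029, minus strand) encodes band 3, the chloride and bicarbonate exchanger of the red cell membrane. It was close to the lower end of what these libraries measured, with 39 and 13 counts in saline and 53 and 62 in ADC/cmLumiOpto. The levels were 2.44, 0.875, 3 and 3.02 CPM and the log2 fold change was 0.85 (SE 0.567). The treated samples were at nearly equal levels, 1.23 and 1.24 times that of saline 1.

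Bpgm (ENSMUSG00000038871, chr6:34453142-34482548, plus strand) makes bisphosphoglycerate, which lowers the affinity of hemoglobin for oxygen, and many other tissues express it at low levels. It had 325 and 196 counts in saline and 484 and 435 in ADC/cmLumiOpto, or 20.3, 13.2, 27.4 and 21.2 CPM. Its log2 fold change of 0.54 (SE 0.279) was the smallest of the 7, and ADC/cmLumiOpto 2 was at 1.04 times the level of saline 1.

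**Figure D1:**
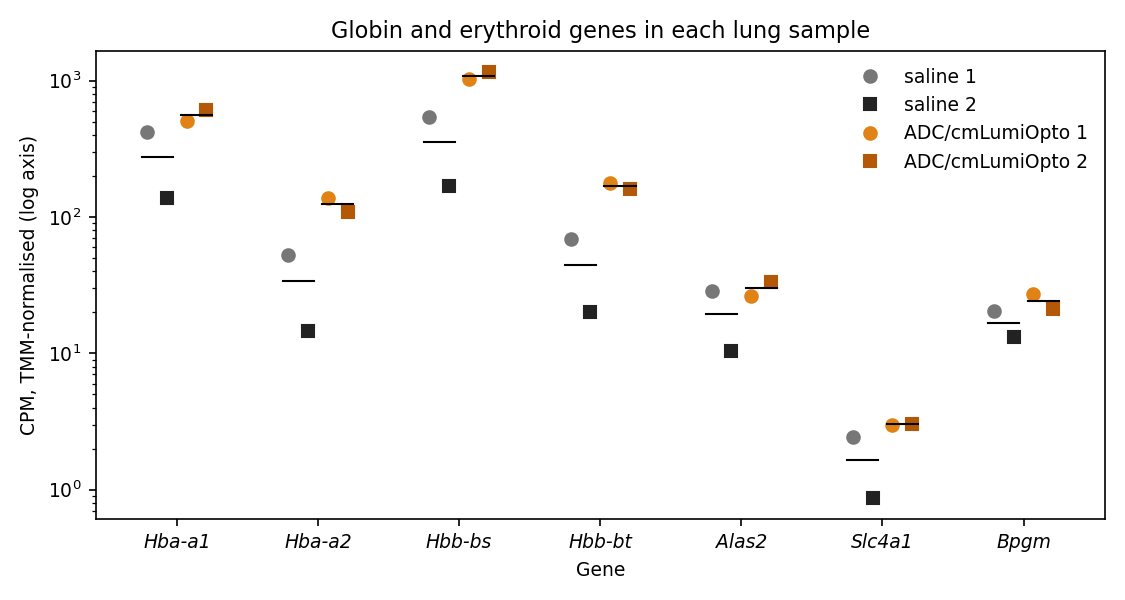
Level of each of the 7 genes in each sample, in TMM-normalized CPM on a log axis, with saline in grey and black, ADC/cmLumiOpto in orange and brown, and a line at the mean of each group. For every gene saline 2 is the lowest sample, and only for Alas2 does a treated sample lie below saline 1.

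All 7 log2 fold changes were above 0 and their median was 1.01, beside a median of 0.03 over all 15320 genes tested. In 6 of the 7 genes both treated samples lay above both saline samples, against 28.1% of all tested genes (28.8% had both below). All 7 were lowest in saline 2, against 30.2% of the tested genes. Since the genes were chosen for their counts in these samples, these shares describe the choice and are read no further. The fold changes of the 4 globins were at or above the 90.9th percentile of all tested genes, whereas Bpgm was at the 79.7th. On the TPM scale, in which the libraries are scaled by reads per length, Hba-a1 and Bpgm also overlapped: Hba-a1 was at 1569 TPM in both saline 1 and ADC/cmLumiOpto 1, and Bpgm at 17.3 TPM in saline 1 and 16.7 TPM in ADC/cmLumiOpto 2.

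The size of these differences turned on the saline samples. Saline 1 was above saline 2 by 3.01 times for Hba-a1, 3.65 times for Hba-a2, 3.22 times for Hbb-bs and 3.45 times for Hbb-bt. The ratio was 2.78 for both Alas2 and Slc4a1 and 1.54 for Bpgm, whereas over all tested genes 50.5% were higher in saline 1 than in saline 2. Without saline 2 the median log2 fold change of the 7 genes was 0.44, and without saline 1 it was 2.01. For single genes, leaving out saline 2 gave 0.44 for Hba-a1, 1.24 for Hba-a2, 1.02 for Hbb-bs, 1.30 for Hbb-bt, 0.07 for Alas2, 0.32 for Slc4a1 and 0.27 for Bpgm. Leaving out saline 1 gave values between 0.88 for Bpgm and 3.10 for Hba-a2. With either treated sample left out, the values lay between 0.35 (Bpgm without ADC/cmLumiOpto 1) and 2.03 (Hba-a2 without ADC/cmLumiOpto 2). No sign changed in these fits, which leave 1 sample in an arm that is assumed to vary like the others. With groups that did not overlap in 6 of the 7 genes, there was little room for such a change.

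**Figure D2:**
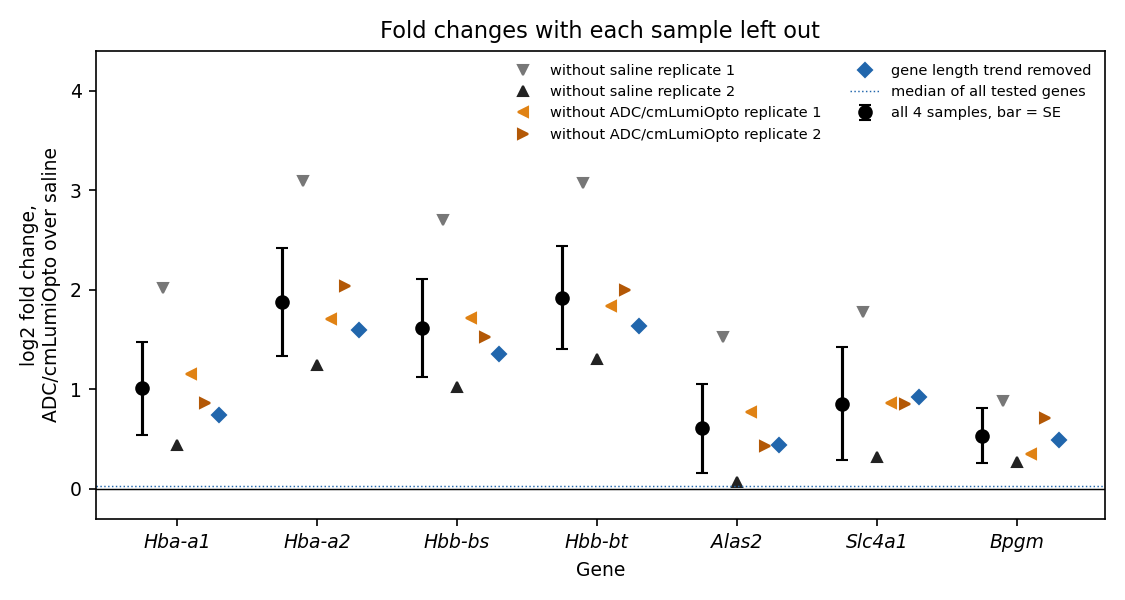
Log2 fold change of each gene (ADC/cmLumiOpto over saline) with all 4 samples (black circle, bar = SE), with each sample left out in turn (triangles) and with the trend on gene length removed (diamond). Values without saline 1 are the highest and those without saline 2 the lowest for all 7 genes, and every value stays above 0.

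Shorter genes had higher fold changes throughout these data. The median log2 fold change was 0.39 over the 1030 tested genes under 1000 bases, the class of the 4 globins, and -0.27 over the 2482 genes of 8000 bases or more. With a smooth trend on gene length removed from each sample, the log2 fold changes were 0.74 for Hba-a1, 1.59 for Hba-a2, 1.35 for Hbb-bs and 1.64 for Hbb-bt. They were 0.44 for Alas2, 0.92 for Slc4a1 and 0.49 for Bpgm, and the median of the 7 was 0.92.

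Levels between genes were compared per length, in TPM. The order was the same in all 4 samples, from Hbb-bs, Hba-a1, Hbb-bt and Hba-a2 to Alas2, Bpgm and Slc4a1. In saline 1 the levels were 2154, 1569, 301, 242, 36.6, 17.3 and 1.52 TPM in that order. In ADC/cmLumiOpto 1 they were 3359.5, 1569, 641, 523, 27.8, 19.3 and 1.55 TPM. The neighbours Hbb-bt and Hba-a2 had overlapping ranges over the samples (87.8 to 641 and 66.8 to 523 TPM), as did Hbb-bs and Hba-a1 (673 to 4247 and 525 to 2133 TPM). Alas2 and Bpgm overlapped as well (13.3 to 39.2 and 11.3 to 19.3 TPM). Slc4a1, between 0.551 and 1.74 TPM, lay apart from all others.

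Ratios within a sample do not depend on library size. The ratio of beta to alpha globin, from the summed TPM of each pair, was 1.36 and 1.29 in saline and 1.91 and 1.88 in ADC/cmLumiOpto. The beta pair accordingly took 56.5% (95% Wilson interval 55.8% to 57.2%) and 55.2% (53.8% to 56.5%) of the globin counts in saline and 65.1% (64.6% to 65.6%) and 64.5% (64.1% to 65%) in ADC/cmLumiOpto. The shift between groups was thus larger than the difference within either group, although total globin differed by 3.17 times between the saline samples, and was not tested since the genes were chosen for these counts.

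Within the alpha pair, Hba-a1 took 88.7% (88% to 89.4%) and 90.5% (89.3% to 91.7%) of the counts in saline and 78.5% (77.7% to 79.2%) and 84.9% (84.3% to 85.4%) in ADC/cmLumiOpto. Within the beta pair Hbb-bs took 88.7% (88% to 89.3%) and 89.3% (88.1% to 90.4%) in saline and 85.1% (84.6% to 85.6%) and 87.9% (87.5% to 88.3%) in ADC/cmLumiOpto. The gene with fewer counts in each pair thus had a larger share in both treated samples. For both pairs the treated samples differed from each other beyond counting error. These splits rest on reads that separate near-identical reference transcripts. For the beta pair, the reference haplotype is also not the one that BALB/c mice are known to carry.

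Globin RNA did not keep a fixed ratio to the other erythroid genes. There were 37.5 and 32.9 globin counts per Alas2 count in saline and 69.7 and 61.1 in ADC/cmLumiOpto. Per Slc4a1 count there were 443 and 390 in saline and 614 and 675 in ADC/cmLumiOpto, which rests on 13 to 62 Slc4a1 counts. Per Bpgm count there were 53.2 and 25.8 in saline and 67.2 and 96.2 in ADC/cmLumiOpto, so that Bpgm followed globin least between the saline samples. The globins are under 1000 bases, and Alas2, Bpgm and Slc4a1 between 2403 and 4891. These ratios were not corrected for the trend on gene length. With that trend removed, the log2 fold changes of Alas2 (0.44) and Bpgm (0.49) stayed below those of every globin. Slc4a1 (0.92) was above Hba-a1 (0.74) and below the other globins.

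**Figure D3:**
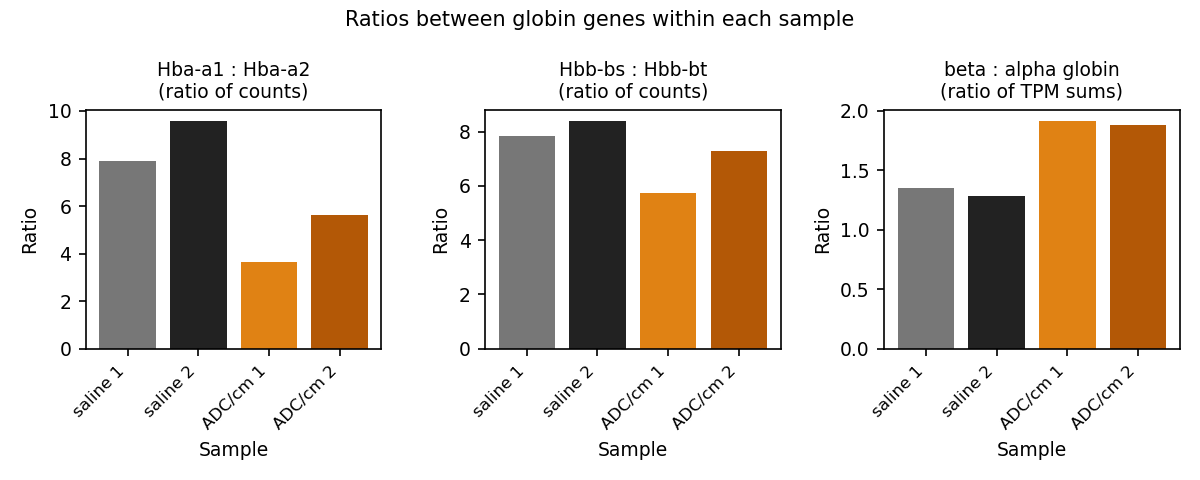
Ratios within each sample of Hba-a1 to Hba-a2 counts, of Hbb-bs to Hbb-bt counts and of beta to alpha globin TPM, where ADC/cm stands for ADC/cmLumiOpto. Both treated samples have lower ratios within the pairs (3.65 and 5.61 against 7.88 and 9.56 for alpha) and a higher beta to alpha ratio (1.91 and 1.88) than both saline samples.

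Other genes of the red cell program were examined in 7 lists of 79 genes, of which 76 were in the table and 52 were tested. With p-values of edgeR's quasi-likelihood test adjusted over all tested genes by Benjamini-Hochberg, 0 of the 52 passed the threshold of 0.05, as did 0 of all tested genes (0%), with a smallest adjusted p of 0.116. At an unadjusted p under 0.05, 10 of the 52 were higher and 6 lower in ADC/cmLumiOpto, against 11% and 12.2% of all tested genes. The edgeR exact test called 3 higher, among them Alas1 and Hp, and 5 lower (Add2, Dmtn, Zfpm1, Cd163 and Lrp1), against 3.96% and 3.68% of all tested genes. DESeq2 called 3 higher and 4 lower, against 3.78% and 5.05% of all tested genes. The median log2 fold change of the 52 genes was 0.19, and 35 were above 0. Of the 52 genes, 18 had both treated samples above and 11 both below both saline samples, against 28.1% and 28.8% of all tested genes.

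Markers of nucleated erythroid cells had very few counts, beside 5065 to 41862 counts of the globin genes per sample. Gata1, the master regulator of the erythroid lineage, had 2 and 1 counts in saline and 3 and 6 in ADC/cmLumiOpto. Klf1, the erythroid Krüppel-like factor that drives adult beta globin, had 7, 2, 1 and 5 counts in the same order. Epor, the erythropoietin receptor, had 2, 5, 2 and 20 counts. These 3 genes did not pass the filter on low counts, and no group difference was detectable at this depth. Of the other globin genes, Hba-x, Hbb-y, Hbb-bh0, Hbb-bh1, Hbb-bh2 and Hbb-bh3 were at 0 in all samples. Hbq1b had 3, 0, 3 and 8 counts and Hbq1a 0, 1, 1 and 0. Hbb-b1, Hbb-b2 and Ahsp were listed but not found under these names among the genes counted, so they have no values here.

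Of the 12 heme synthesis genes tested, 10 had log2 fold changes above 0, with a median of 0.34, and 5 were higher at an unadjusted p under 0.05. Over all tested genes, 7961 of 15320 were above 0 and 11% were higher at that p. Alas1, the form of the first enzyme used by all cells, was at 51.3 ± 13.9 CPM in saline and 92.8 ± 7.69 CPM in ADC/cmLumiOpto (n = 2 each), a log2 fold change of 0.85. Its adjusted p was 0.123 by edgeR's quasi-likelihood test, and it was 1 of the 3 genes called higher by the exact test (adjusted p = 0.0345). Tmem14c, which moves porphyrin precursors into mitochondria, had a log2 fold change of 0.47, and Alad, which forms porphobilinogen, of 0.38. Fech, which inserts the iron into heme, was at -0.22.

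Red cell membrane and skeleton genes were split, with 4 of 11 tested above 0, beside 7961 of all 15320 tested genes, and a median of -0.37. Dmtn (dematin) was at 50 ± 1.29 CPM in saline and 29.9 ± 1.54 CPM in ADC/cmLumiOpto, and Add2 (beta-adducin) at 24.7 ± 1.13 and 11.2 ± 3.15 CPM. Their adjusted p-values by edgeR's quasi-likelihood test were 0.116 and 0.12, and both were among the 5 genes called lower by the exact test. Epb41, the protein that ties spectrin to actin, had a log2 fold change of -0.39 and Gypc, a glycophorin, of -0.37. These genes are also used outside red cells. On the same side as Slc4a1 were Xk at 1.69, Tmod1 (tropomodulin, which caps actin filaments) at 1.13 and Rhd (an Rh blood group protein) at 0.93 on the log2 scale, named after their values were seen, with overlapping groups for Tmod1 and Rhd.

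Among the erythroid transcription factors, 5 of 7 tested genes were above 0, with a median of 0.53. Nfe2, which neutrophils and megakaryocytes also express, had 128 and 60 counts in saline and 98 and 864 in ADC/cmLumiOpto, so its log2 fold change of 1.98 rested on ADC/cmLumiOpto 2, the sample with the most neutrophil marker RNA. Zfpm1, a cofactor of GATA factors, was at 61.6 ± 5.11 CPM in saline and 34.2 ± 7.63 CPM in ADC/cmLumiOpto, with an adjusted p of 0.123 by edgeR's quasi-likelihood test and a call by the exact test. Lmo2 and Ldb1, bridging proteins of the erythroid complex, had log2 fold changes of 0.69 and 0.15.

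Of the growth and iron uptake receptors, Tfrc, the transferrin receptor, had 1401 and 920 counts in saline and 1840 and 2242 in ADC/cmLumiOpto, a log2 fold change of 0.51 (adjusted p = 0.206 by edgeR's quasi-likelihood test). Kit, the stem cell factor receptor, had 493, 385, 379 and 810 counts, and its groups overlapped. Slc11a2, an iron transporter, was at 0.36 and Steap3, an iron reductase, at -0.25 on the log2 scale. Of the red cell enzymes and late erythroid genes, 9 of 11 tested were above 0, with a median of 0.23. The most abundant of them had log2 fold changes of 0.14 for Prdx2, an antioxidant enzyme, -0.05 for Bnip3l, which clears mitochondria from reticulocytes, 0.32 for Mkrn1, a ubiquitin ligase, and 0.23 for Bcl2l1, a survival factor.

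Genes that clear free hemoglobin and heme were split, with 4 of 7 tested above 0 and a median of 0.03. Hp, haptoglobin, which binds free hemoglobin, was at 123 and 52.9 CPM in saline and 315 and 479.8 CPM in ADC/cmLumiOpto, a log2 fold change of 2.18 (SE 0.417). Its adjusted p was 0.116 by edgeR's quasi-likelihood test and 0.000191 by the exact test. Lrp1, a receptor for heme bound to hemopexin and for many other ligands, was at 917 ± 162 CPM in saline and 427 ± 96.4 CPM in ADC/cmLumiOpto, with an adjusted p of 0.116 by edgeR's quasi-likelihood test. Hmox1, the heme-degrading enzyme, was at 84.7 ± 23 and 86.4 ± 2.16 CPM, and Slc48a1, a heme transporter, at 112 ± 18.2 and 87 ± 3.94 CPM. Cd163, the macrophage receptor for haptoglobin with hemoglobin, named after its values were seen, had 210 and 803 counts in saline and 60 and 174 in ADC/cmLumiOpto, and was thus highest in the sample with the least globin RNA.

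**Figure D4:**
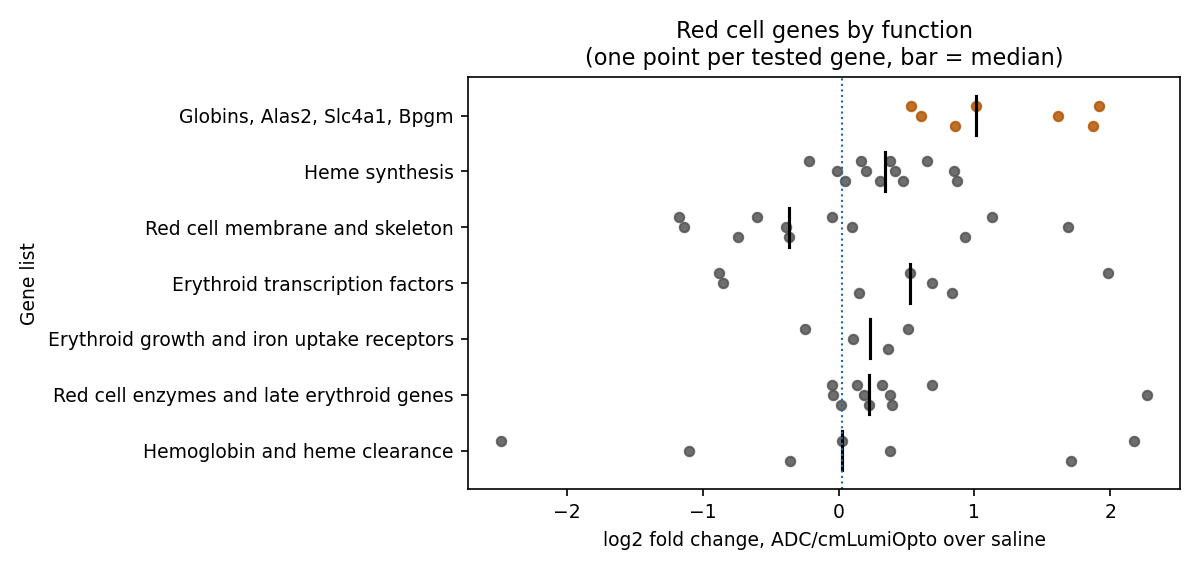
Log2 fold changes (ADC/cmLumiOpto over saline) of the tested genes of each red cell list, 1 point per gene, with a bar at the list's median and a dotted line at the median of all tested genes. The 7 genes described here, chosen for their counts in these samples, all lie above 0 (median 1.01), whereas the other lists spread to both sides, with medians from -0.37 to 0.53.

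Marker genes of other cells moved with globin RNA in part. The 7 alveolar type 2 cell markers summed to 1635 and 440.3 CPM in saline and to 5630.2 and 4773 CPM in ADC/cmLumiOpto. Of these markers 6 of 7 were lowest in saline 2, and the same number had both treated samples above both saline samples, led by Sftpc and Sftpb, against 30.2% and 28.1% of all tested genes. Abca3, a lipid transporter named after its values were seen, went the other way, with both treated samples below both saline samples and a log2 fold change of -0.23. Their sum differed by 3.71 times between the saline samples, beside 3.17 times for globin. Summed T cell markers (Cd8a, Cd3g and 3 others) were also lowest in saline 2, at 37 and 14.1 CPM in saline and 74.7 and 33.6 CPM in ADC/cmLumiOpto. B cell markers, led by Cd22 and Cd79b, were at 11.1 and 4.51 CPM in saline and 12.2 and 11.3 CPM in ADC/cmLumiOpto, with Ms4a1 at 0 in saline 2. The part of these cells in the globin values was not tested.

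The sums of other marker lists had other patterns, although single genes of some of these lists moved as globin did. Neutrophil markers, led by S100a9 and S100a8, were at 1589 and 725 CPM in saline, 1455 CPM in ADC/cmLumiOpto 1 and 9402 CPM in ADC/cmLumiOpto 2, whereas globin RNA differed by 1.11 times between the treated samples. All 11 neutrophil genes had log2 fold changes above 0 (median 2.01), beside 7961 of all 15320 tested genes. Of the 11, 10 were lowest in saline 2, against 30.2% of all tested genes, and all were highest in ADC/cmLumiOpto 2. In 4 of them both treated samples lay above both saline samples, against 28.1%. Platelet and megakaryocyte markers, led by Pf4 and Itga2b, were at 15.7 and 29.3 CPM in saline and 26.2 and 40 CPM in ADC/cmLumiOpto. The sum was thus higher in saline 2 than in saline 1, which rested mostly on Pf4, at 7.49 and 23.5 CPM in saline. Of the 7 tested genes of the list, 5 were lowest in saline 2, as globin was, against 30.2% of all tested genes. Their log2 fold changes were above 0 for 6 and below 0 for 1, with a median of 1.08. In 4 of the 7 both treated samples lay above both saline samples, against 28.1% of all tested genes. Gp1bb was at 0 in all samples and Gp9 at 0 in saline 2. Endothelial markers (Cdh5, Pecam1 and 5 others) were at 493, 403, 496 and 717 CPM. Alveolar macrophage markers, led by Mrc1 and Chil3, were at 365 and 855 CPM in saline and 237 and 419 CPM in ADC/cmLumiOpto. The list was split, with 4 of 7 log2 fold changes above 0, 3 below and a median of 0.09. Car4, at 2.13, and Ear2, at 0.65, had both treated samples above both saline samples. Fibroblast markers, led by Col1a1 and Col3a1, were at 5144 and 3539.7 CPM in saline and 1764 and 1457 CPM in ADC/cmLumiOpto. Epithelial tumor markers, led by Krt8 and Krt18, were at 2635, 3018, 2570.3 and 2472 CPM. Of these 6 genes, 4 had log2 fold changes below 0 and 2 above, Cdh1 at 0.36 and Epcam at 0.18. Tumor cells and epithelial cells of the lung were not told apart.

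**Figure D5:**
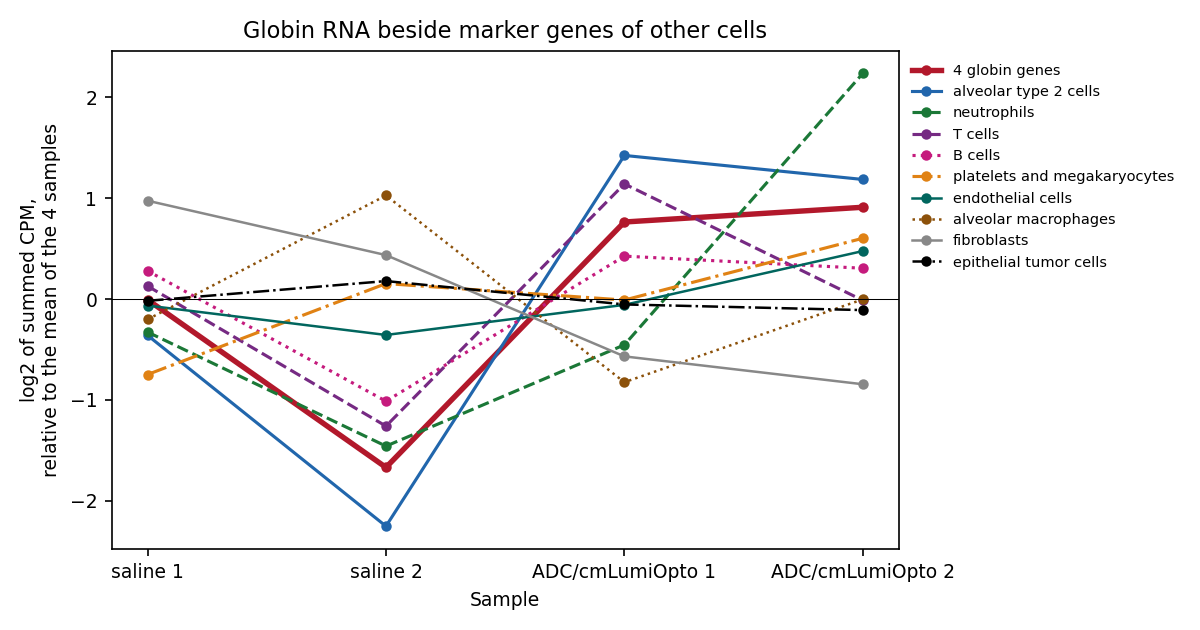
Summed CPM of the 4 globin genes and of each marker list in each sample, as log2 relative to the mean of the 4 samples on that scale; lines only join the points of a list. Globin RNA (thick red) and alveolar type 2 markers (blue) are lowest in saline 2 and highest in the treated samples, whereas neutrophil markers stand out in ADC/cmLumiOpto 2 alone.

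The genes nearest to the globin profile were sought by Euclidean distance over the log2 CPM of the 4 samples, centred for each gene. The profile, the mean of the 4 globins, was at -0.06 and -1.79 in saline and 0.93 and 0.92 in ADC/cmLumiOpto. The median distance of all tested genes was 2.24. Of the 7 genes themselves, Hbb-bs was at 0.137, Hbb-bt at 0.348, Hba-a2 at 0.39 and Hba-a1 at 0.674, and Slc4a1 (0.907), Alas2 (1.11) and Bpgm (1.53) lay farther out. The 4 globins make up the profile and the other genes do not, so part of this order was built in. The 10 nearest genes outside the 7 were AI182371 (0.0551), Gm13032 (0.159), Eps8l1 (0.17), Gstk1 (0.176), Foxj1 (0.182), Spaar (0.187), Gm11007 (0.187), 4632427E13Rik (0.201), Atp2a3 (0.206) and Homer2 (0.226). AI182371 had 4, 0, 11 and 13 counts, and 1 of the 10 had over 250 counts in any sample, Atp2a3 with 258, 58, 509 and 612. With 4 samples such a likeness is a description of these libraries.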

How the data were processed

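Poly-A selected mRNA of 2 saline and 2 ADC/cmLumiOpto samples was sequenced by the authors on an Illumina HiSeq platform and aligned with HISAT2. The submitters' processing notes name mm39 and the methods GRCm38. The file deposited by the authors holds raw, unnormalized counts for 56748 genes, of which 31185 had no count. The counting program and strand setting are not given in the sources used here. The 7 genes and all lists were chosen with earlier results of these data known.

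The analysis used edgeR 4.0.16 (R 4.3.3): filterByExpr (minimum count 10, minimum total 15), TMM (factors 0.973 to 1.04), glmQLFit and glmQLFTest on group, and Benjamini-Hochberg adjustment at 0.05. The prior count was 0.125 for fold changes and 2 for the log2 CPM of the profile. The SE is the log2 fold change divided by the square root of F. TPM was computed here from the counts and the gene lengths in the table. The labels number the samples and do not say how those of 1 group were obtained, so p-values measure the spread between these samples, which may be technical. Alternatives were DESeq2 1.42.0, the edgeR exact test, other normalizations and filters, libraries without globins, a replicate block, a gene length trend (lowess span 0.3) and each sample left out. The procedure was tested on simulated data.

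Named genes were the 7, the 4 most abundant tested genes of each red cell list (none passed the threshold), Gata1, Klf1, Epor, Tfrc and Kit, the 2 most abundant of each marker list and the 10 nearest to the globin profile. A few genes that the rule or the lists hold are not reported here. Any other gene named, including the further globins and markers given at or near 0, was chosen after its values were seen. The coding sequences are from GENCODE M21 and the promoters from RefSeq.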

Additional observations from a re-analysis of the deposited data

How the results depend on the processing

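The median log2 fold change of the 7 genes was 1.01. It lay between 0.82 (per-length values) and 1.21 (replicate block) under the alternatives with all samples, and between 0.44 without saline 2 and 2.01 without saline 1. No alternative changed the sign of any of the 7 values. The groups of 6 of these genes did not overlap, so leaving out a sample left little room for a change of sign. Values moved by more than the replicate spread only without saline 1, for all but Bpgm. That spread includes the gap between the saline samples, so it is a wide bound. The fall of Alas2 from 0.61 to 0.07 without saline 2 lay within it.

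Counts of calls depended on the test. Of the 15320 tested genes, the quasi-likelihood test called 0, DESeq2 1353, the edgeR exact test 1170 and the replicate block 607. Without a filter, the quasi-likelihood test called 2259 of 25563 genes. Leaving out 1 sample gave between 0 and 206 calls, the latter without saline 1. Of the 52 red cell list genes, these calls numbered 0 in the first fit, 7 with DESeq2, 8 with the exact test, 12 without a filter, 7 with the replicate block and between 0 and 3 with 1 sample left out (3 without saline 1). The cause was not tested. Same-numbered samples had deviations correlated at 0.0985 over 2 pairs and share only a number. Depth limited Slc4a1, with 13 to 62 counts, and the nucleated erythroid markers, with 1 to 20 counts. No group had enough samples to look for a sample far from the others.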
